A study of Mus musculus with 16 samples.

Results

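The genes Dntt, Rag1, Rag2, Vpreb1, Vpreb2, Vpreb3 and Igll1 carry out V(D)J recombination or encode the surrogate light chain and its relative. These 7 genes were chosen by name, from earlier results of the same RNA comparison, out of 25239 genes listed. Their RNA fold changes are therefore given as a description, with no test. Of the 13083 m6A peaks, 8 carried the name of one of them, and the peak values were not used to choose the genes.

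The study profiled RNA and N6-methyladenosine (m6A, a methyl group on adenosines inside RNA) in bone of wild type mice. Libraries titled OVX came from mice whose ovaries had been removed (ovariectomy), and those titled NC were read as sham-operated. Each arm had 4 input libraries of RNA before the pull-down and 4 IP libraries of fragments bound by an m6A antibody, 16 in all. The treatment label of the 4 NC IP libraries also reads ovariectomy, and the title was followed. Strain, age, the bone taken, the time after surgery and whether libraries came from separate animals are not stated in the labels. Deposited p-values may therefore measure only technical spread.

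V(D)J recombination cuts and joins the gene segments of antibody and T cell receptor genes in developing lymphocytes. RAG1 and RAG2 form the recombinase that cuts beside the segments, and terminal deoxynucleotidyl transferase, the product of Dntt, adds bases to the cut ends before end joining proteins seal them. A precursor B cell that has joined a heavy chain gene tests it by pairing the chain with a surrogate light chain made of VpreB and lambda 5 (Igll1). In adult mice these steps for B cells take place in bone marrow. Estrogen is known to restrain the production of B cell precursors in mouse marrow.

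Both tables hold the authors' own comparisons, with no value for a single library. For each gene the RNA table has a mean normalized count over libraries, a log2 fold change and the standard error (SE) of that fold change. Which arm is the numerator is recorded in neither table, and the tables need not share it. Signs therefore stand as deposited, and the arms are called numerator and denominator. In the usual alphabetical order of group names OVX would be the numerator, but the tables do not say so. Mean normalized counts summed to 43717045 over all genes, and 15396 genes had an adjusted p, the lowest at a mean of 12.4 counts in the authors' deposited table. All 7 genes were among them.

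As a check of the tissue, the 11 bone markers, among them the collagen genes Col1a1 and Col1a2, had mean counts from 482 to 99868 in the authors' deposited table, and none was at 0. Neutrophil markers reached 225725 and skeletal muscle markers 336368 counts in the authors' deposited table, so the samples also held marrow and muscle RNA. All 6 muscle markers had negative fold changes, from -1.62 to -1.30, in the authors' deposited table. The part of muscle content in the results below was not tested.

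Promoter sequences are shown because these genes sit at 5 separate loci and had fold changes of 1 sign, and because Vpreb1 and Vpreb2 are close copies. All 7 genes matched the RefSeq promoter table (build GRCm38.p6), which holds 250 bases before and 50 after each annotated start. The promoters of Rag1 (chr2:101649533-101649782, minus strand), Rag2 (chr2:101624462-101624711, plus strand) and Igll1 (chr16:16863986-16864235, minus strand) are printed 5′ to 3′ up to the start. Capitals mark the letters searched for: E-boxes CAGCTG and CAGGTG, the EBF letters CCCNNGGG, the Ikaros letters TGGGAA, the FOXO letters TGTTTAC and the TATA letters TATAAA, on either strand.
Rag1: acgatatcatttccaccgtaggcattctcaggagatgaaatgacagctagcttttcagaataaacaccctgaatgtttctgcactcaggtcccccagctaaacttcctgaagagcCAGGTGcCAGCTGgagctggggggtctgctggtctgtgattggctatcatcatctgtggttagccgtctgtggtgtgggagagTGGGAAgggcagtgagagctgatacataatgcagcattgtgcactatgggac
Rag2: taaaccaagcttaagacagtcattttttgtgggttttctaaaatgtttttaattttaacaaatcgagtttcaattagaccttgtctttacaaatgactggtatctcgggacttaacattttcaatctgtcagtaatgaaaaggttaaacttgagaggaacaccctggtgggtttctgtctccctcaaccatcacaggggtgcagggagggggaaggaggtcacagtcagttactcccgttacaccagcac
Igll1: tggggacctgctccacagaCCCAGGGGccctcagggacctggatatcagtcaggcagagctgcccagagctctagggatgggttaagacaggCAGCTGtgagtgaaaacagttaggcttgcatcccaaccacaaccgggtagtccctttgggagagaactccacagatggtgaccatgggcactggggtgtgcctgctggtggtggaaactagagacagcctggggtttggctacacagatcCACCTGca

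The letters CAGCTG stood in 3 of the 7 windows, those of Rag1, Vpreb2 and Igll1, and in 16.3% of all 32851 windows of that length. The letters CAGGTG stood in 4 of the 7, those of Rag1, Vpreb1, Vpreb2 and Igll1, and in 20.2% of all windows. In Rag1 the E-boxes began 135 and 128 bases before the start, and in Igll1 158 and 8 bases before it. CCCNNGGG matched in Igll1 alone among the 7 (13.7% of all windows), and TGGGAA in Rag1 and Vpreb2 (25.6%). In Vpreb2 the Ikaros match shared its last bases with the E-box CAGCTG. Neither TGTTTAC (3.65% of all windows) nor TATAAA (13.6%) stood in any of the 7 windows. Each window held between 1 and 3 CpG dinucleotides, against a median of 7 over all windows, and 31.4% of all windows held 3 or fewer. These matches are letters in a window and say nothing of binding.

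The windows of Vpreb1 and Vpreb2 held the same sequence, shifted by 144 bases. Over the 156 bases that overlap, 153 (98.1%) were identical, with a longest identical run of 91 bases before the start. No other pairing of the 7 windows exceeded 45.1% identity at its best ungapped shift. The part that lies before both annotated starts is printed for Vpreb1 (chr16:16869256-16869361, minus strand) and Vpreb2 (chr16:17980315-17980420, plus strand). Capitals mark the positions at which they differ, G12T and C104T, with the Vpreb1 base first and positions counted from the first base printed.
Vpreb1: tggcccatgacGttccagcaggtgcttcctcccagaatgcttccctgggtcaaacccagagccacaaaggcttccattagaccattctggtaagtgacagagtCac
Vpreb2: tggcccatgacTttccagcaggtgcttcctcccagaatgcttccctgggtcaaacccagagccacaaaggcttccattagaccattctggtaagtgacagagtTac
The transcripts of these copies were not compared here. Whether reads of Vpreb1 and Vpreb2 were counted for each other was not tested, and their values are uncertain to that extent.

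RNA of the recombination genes was several-fold higher in the numerator arm. Dntt had a mean of 1714 counts and a log2 fold change of 2.34 ± 0.24 (SE) in the authors' deposited table. If the fold change is read as the ratio of the arm means, it corresponds to 2863 counts in the numerator arm and 566 in the denominator arm, a 5.06-fold difference. The terminal transferase gene thus had the smallest SE of the 7. Rag1, the catalytic recombinase subunit, had the highest mean of the 7, 4513 counts, and a log2 fold change of 2.22 ± 0.39 (SE) in the authors' deposited table. By the same reading it stood at 7435 counts in the numerator arm and 1591 in the denominator arm. Rag2, the accessory subunit, had a mean of 337 counts and a log2 fold change of 2.76 ± 0.42 (SE) in the authors' deposited table. Its arm means come to 588 counts in the numerator arm and 86.5 in the denominator arm. The log2 fold changes of both recombinase genes lay within each other's 95% intervals, 1.46 to 2.99 for Rag1 and 1.94 to 3.59 for Rag2. In such bulk samples, more precursor cells and more RNA per cell cannot be told apart.

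The surrogate light chain genes and Vpreb3 had log2 fold changes from 1.67 to 3.07, around the 2.22 to 2.76 of the recombination genes. Their means, from 47.4 to 447 counts, lay below those of Dntt and Rag1. The means of Vpreb1 and Vpreb3 were above that of Rag2 (337 counts). Igll1, which encodes lambda 5, had the largest log2 fold change of the 7, 3.07 ± 0.51 (SE), at a mean of 135 counts in the authors' deposited table. Its arm means come to 241 counts in the numerator arm and 28.7 in the denominator arm, an 8.40-fold difference. Vpreb1, the main VpreB gene, had a mean of 341 counts and a log2 fold change of 2.53 ± 0.32 (SE) in the authors' deposited table. That corresponds to 581 counts in the numerator arm and 100.5 in the denominator arm. Vpreb2, its close copy, had a log2 fold change of 1.96 ± 0.76 (SE) at a mean of 47.4 counts in the authors' deposited table. With arm means of 75.3 counts in the numerator arm and 19.4 in the denominator arm, it was the lowest and least precise of the 7. Vpreb3, known in mouse to bind free heavy chains inside precursor B cells rather than at the surface, had a mean of 447 counts in the authors' deposited table. It had the smallest log2 fold change of the 7, 1.67 ± 0.38 (SE), in the authors' deposited table, or 679 counts in the numerator arm and 214 in the denominator arm.

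**Figure D1:**
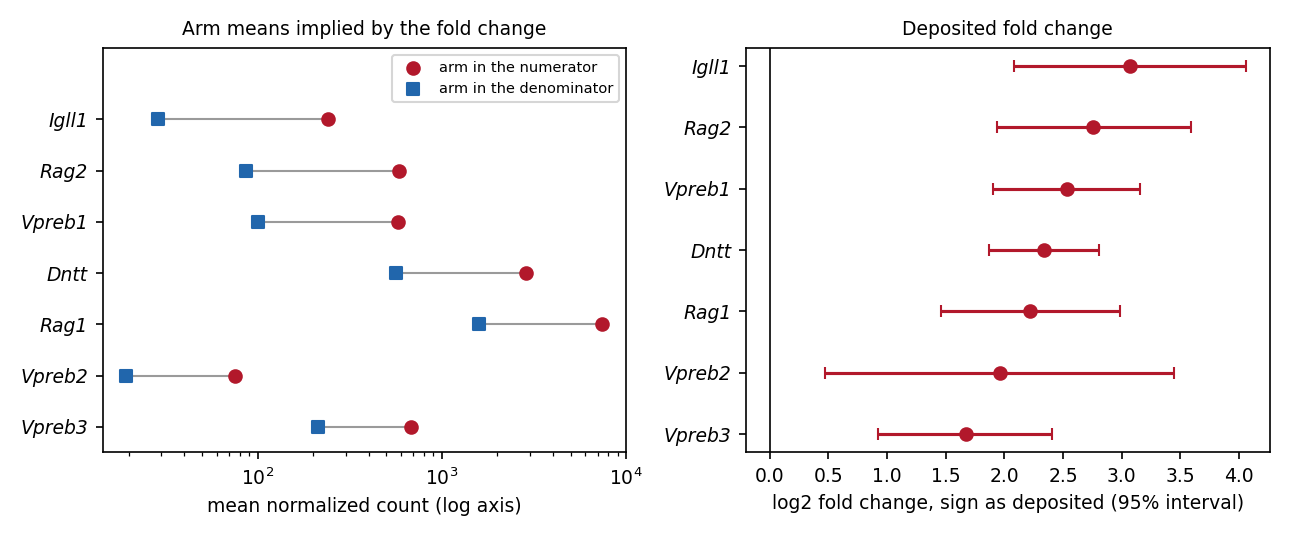
Left, mean normalized count (log axis) of each gene in the numerator arm (red circles) and the denominator arm (blue squares), computed from the deposited mean and fold change. Right, deposited log2 fold change with its 95% interval. All 7 intervals lie above 0, and all contain the range from 2.08 to 2.41.

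All 7 fold changes were positive, and the authors' deposited table put the adjusted p of 6 of the 7 below 0.05, where 12.2% of tested genes did in either direction and 6.07% with a positive sign. Nothing is read from that count, since these values chose the genes. The gene that missed the threshold was Vpreb2, with an adjusted p of 0.069 in the authors' deposited table. The 95% intervals of all 7 genes overlapped, sharing the range 2.08 to 2.41 on the log2 scale. Their fold changes had an SD of 0.48 between genes beside a median SE of 0.39, and a difference between genes was not tested, since the genes share their libraries. Among the 15396 tested genes, with a median log2 fold change of -0.022, 42 (0.273%) had a fold change as high as that of Vpreb3 or higher. Of those, 24 were called in the authors' deposited table. Both counts include the chosen genes themselves, all 7 in the first and the 6 called in the second. Igll1 ranked 6, Rag2 8, Vpreb1 10, Dntt 14, Rag1 17, Vpreb2 23 and Vpreb3 42 by fold change in the authors' deposited table. These ranks describe how far the chosen genes lay from the rest.

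**Figure D2:**
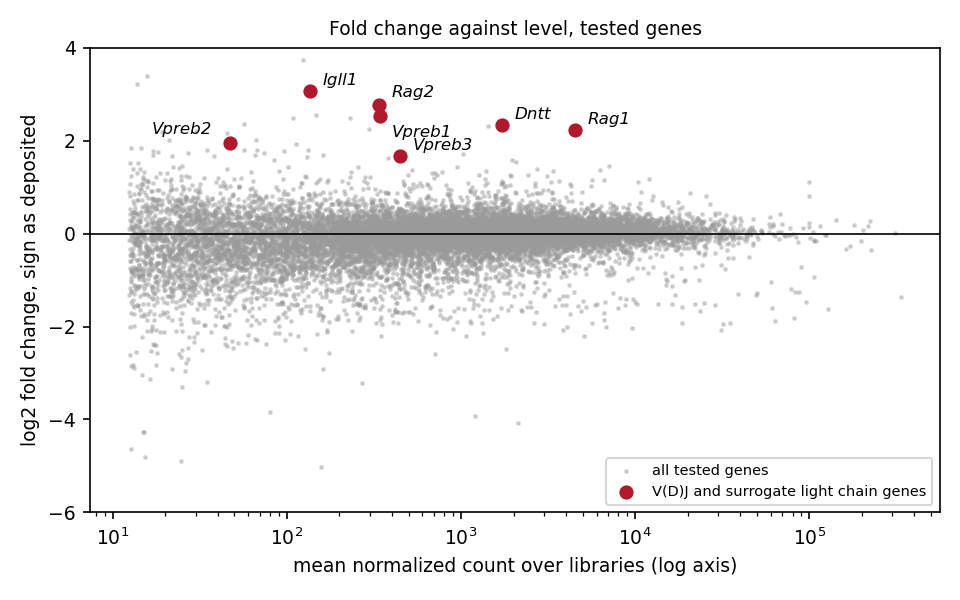
Deposited log2 fold change against mean normalized count (log axis) for the tested genes (grey) with the 7 genes in red. The 7 genes span means from 47.4 to 4513 counts and sit between 1.67 and 3.07. The axis leaves out 3 tested genes beyond -6 or 4.

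Counting error was a small part of the uncertainty. The SE of each gene was between 3.55 times (Igll1) and 19.7 times (Rag1) the SE that counting alone would give for arms of 4 libraries. The rest corresponds to a coefficient of variation (CV) between libraries of 23.1% for Dntt, 30.5% for Vpreb1, 36.8% for Vpreb3, 38.3% for Rag1, 40.3% for Rag2, 47.5% for Igll1 and 72.3% for Vpreb2. This CV is computed from the deposited mean, fold change and SE, and carries the smoothing of the authors' model. The 7 genes varied more between libraries than most genes of their level. Among tested genes with a mean within 1.5 times that of Rag1, 97.7% had a lower CV, with a median of 10.6%. The same share was 92.7% for Rag2, 91.7% for Vpreb3, 91.0% for Vpreb2, 90.5% for Igll1, 88.2% for Dntt and 84.2% for Vpreb1. Which libraries differed cannot be read from the table.

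Methylated RNA was called in Rag1, Rag2 and Vpreb1 and in none of the other 4 genes. A peak here is a stretch where IP reads exceed input, and its enrichment is the ratio of IP over input. Positions are those of the peak table, written with the first base as 1. All 8 peaks lay within the gene of their name, and on its strand, in the GRCm38.p6 annotation. Rag1 carried 5 peaks, which together covered 801 of the 2738 bases from the first edge to the last in the authors' deposited table (chromosome 2, 101641437 to 101644174, minus strand). In the direction of transcription, the Rag1 peaks had enrichments of 1.81, 1.74, 1.70, 1.88 and 1.32 in the authors' deposited table. The last, nearest the 3′ end, was the weakest of the 8 and lay at the 8.24th percentile of all peaks. At the level of Rag1, 5.43% of the other tested genes with a mean within 1.5 times had 5 or more peaks.

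Rag2 carried 2 peaks, at 101630193 to 101630342 and 101630590 to 101630789 on the plus strand of chromosome 2, with enrichments of 2.54 and 2.31 in the authors' deposited table. Rag2 thus held both peaks that reached an enrichment of 2, 2 of 8 beside 37.3% of all peaks, and its enrichments lay at the 88.0th and 80.2nd percentiles. The coding sequences of Rag1 and Rag2 each lie within an uninterrupted exon in mouse, and all 8 peaks were in 1 block, as were 59.9% of all peaks. Vpreb1 carried 1 peak of 145 bases (chromosome 16, 16868545 to 16868689, minus strand), with an enrichment of 1.49 in the authors' deposited table. Over the 8 peaks the median enrichment was 1.77, beside a median of 1.82 with quartiles of 1.54 and 2.20 over all 13083 peaks.

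Dntt carried no peak at a mean of 1714 counts, a level at which 59.8% of the other tested genes had one. For Vpreb3, Igll1 and Vpreb2, also without a peak, the share of genes with a peak at their level was 37.7%, 18.5% and 7.51%. The share was 33.3% at the level of Rag2 and 33.4% at that of Vpreb1. A gene without a peak was not called at this depth and is not shown to lack m6A.

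None of the 8 peaks had a difference p under 0.05 between the arms, where 4.92% of all peaks did in the authors' deposited table, and none had a false discovery rate (FDR) under 0.05. The tool behind this test is not given in the sources used here. The smallest p was 0.101, for the Rag1 peak nearest the 3′ end, with a log2 difference of 0.34 in the authors' deposited table. The other Rag1 peaks had log2 differences of -0.33, 0.24, 0.02 and 0.009 in the direction of transcription in the authors' deposited table. Both Rag2 peaks were negative, with log2 differences of -0.40 (p = 0.587) and -0.30 (p = 0.835) in the authors' deposited table. The Vpreb1 peak had a log2 difference of 0.29 (p = 0.174) in the authors' deposited table. The median absolute log2 difference was 0.30 over the 8 peaks and 0.14 over all peaks. These medians were not matched for gene level, and nothing is read from their gap. The deposited table gives no error for a difference.

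**Figure D3:**
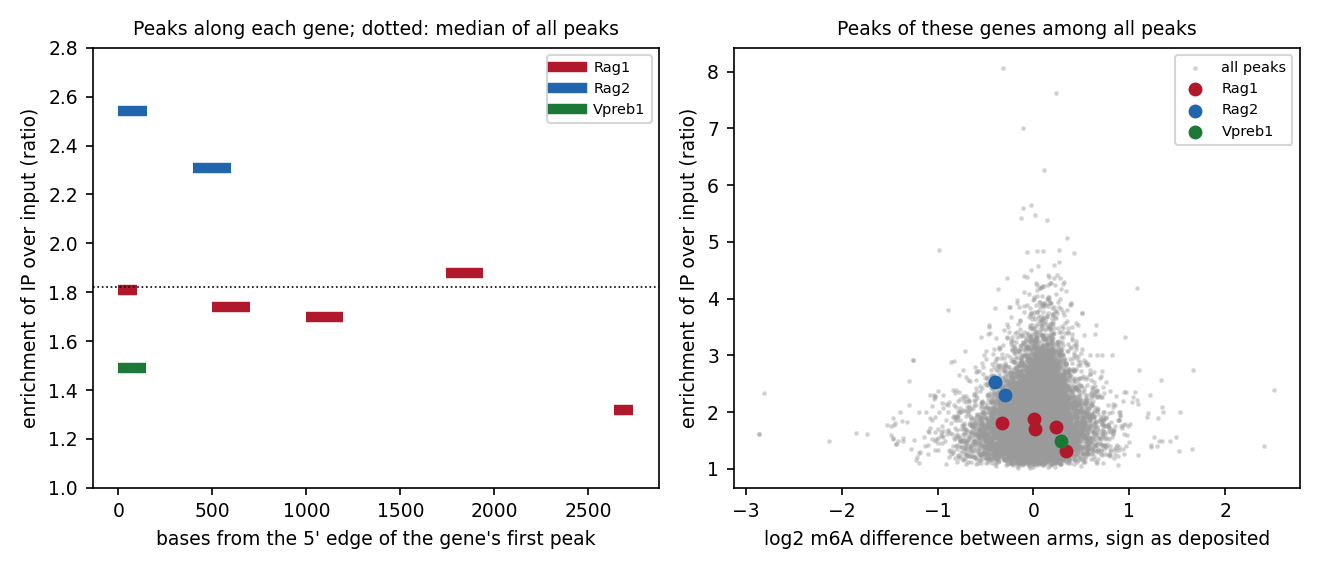
Left, the 8 peaks by distance in bases from the 5′ edge of the first peak of their gene, drawn at their enrichment of IP over input, with the median of all peaks (1.82) dotted. Right, enrichment against the log2 difference between arms for all peaks (grey) and the 8 peaks. The Rag2 peaks stand highest, at 2.31 and 2.54, and the 8 differences lie between -0.40 and 0.34.

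Genes that act with the recombinase and the surrogate light chain had smaller fold changes. End joining proteins seal the cut ends. Their list of 14 tested genes also held Hmgb1, Hmgb2, Atm and Trp53bp1, which do not themselves seal ends. In that list 3 of 14 genes were called, all positive, with a median of 0.14, beside -0.022 over all tested genes. The counts of this and the following lists stand beside the 12.2% of all tested genes called in either direction and the 6.07% called with a positive sign. The 3 called genes of the end joining list were Lig4, Polm and Xrcc6. Lig4, the ligase of the final step, had 0.76 ± 0.16 (log2 ± SE) in the authors' deposited table. Polm, a polymerase related to terminal transferase, had 0.73 ± 0.18 (log2 ± SE) in the authors' deposited table. Xrcc6, the Ku70 subunit that binds DNA ends, had 0.70 ± 0.16 (log2 ± SE) in the authors' deposited table. Genes that signal from the receptor formed with the surrogate light chain were called in 6 of 9 cases, all positive (median 0.78). Blnk, the adaptor of that receptor, stood at 1.13 ± 0.15 and Syk, its kinase, at 0.63 ± 0.09 (log2 ± SE) in the authors' deposited table. Cd79a, a signalling chain of the receptor, stood at 1.07 ± 0.22 (log2 ± SE) in the authors' deposited table.

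Transcription factors of early B cells were called in 10 of 17 cases, 9 positive and 1 negative, with a median of 0.57. Bach2 had 1.35 ± 0.27, Lef1 1.32 ± 0.19, Irf4 1.09 ± 0.22 and Sox4 1.0 ± 0.16 (log2 ± SE) in the authors' deposited table. The negative call was Erg, at -1.02 in the authors' deposited table, named after its value was seen. The interleukin-7 pathway, which sustains precursor B cells in mouse, had 2 of 9 genes called, both positive (median 0.16). The receptor chain Il7r had 0.89 ± 0.18 and its partner Il2rg 0.28 ± 0.10 (log2 ± SE) in the authors' deposited table. Surface markers used to stage precursor B cells had 2 of 10 called, both positive (median 0.10), and 4 of the 10 had negative values. Ly6d, which marks lymphoid progenitors committed to the B lineage, had 1.20 ± 0.22, and Cd93 had 0.37 ± 0.10 (log2 ± SE) in the authors' deposited table. The negative values, named after they were seen, were -0.43 for Enpep, -0.25 for Mme, -0.21 for Kit and -0.05 for Spn in the authors' deposited table, and none was called.

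Every one of the 7 genes had a larger fold change than any tested gene of these lists, the highest of which was Bach2, with a 95% interval of 0.83 to 1.87. The interval of Bach2 overlapped those of Rag1, Vpreb2 and Vpreb3, whose lower bounds were 1.46, 0.47 and 0.92. It met that of Dntt to within rounding, at 1.87, and lay below those of Vpreb1, Rag2 and Igll1, which began at 1.90, 1.94 and 2.08. Nothing is read from this order, since the 7 genes were chosen on these fold changes. The gaps are also not tests, because the genes share their libraries and the covariance of their errors is not known.

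Later B cells and other lineages were also compared. All 12 mature B cell genes were positive and 3 were called (median 0.48), namely Ccr7 with 0.88 ± 0.19, H2-Ob with 0.77 ± 0.18 and Cd37 with 0.40 ± 0.09 (log2 ± SE) in the authors' deposited table. Plasma cells, which secrete antibody, had 4 of 9 genes called, 2 positive and 2 negative (median -0.28). Among them, Slamf7 had 0.89 ± 0.21 and Mzb1 0.59 ± 0.12, against -0.82 ± 0.14 for Jchain and -0.35 ± 0.11 for Sdc1 (log2 ± SE) in the authors' deposited table. Dntt, Rag1 and Rag2 are also used by developing T cells in the thymus. Ptcra, which encodes the surrogate alpha chain of thymocytes, was listed at 0 in the authors' deposited table. Among the other 14 T cell and thymocyte genes, 2 were called, 1 of each sign, with a list median of -0.17. The positive call was Lck, a kinase of T cell receptor signalling, at 0.39 ± 0.13 (log2 ± SE) in the authors' deposited table.

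Of the nonlymphoid lists, none of 8 neutrophil genes was called in the authors' deposited table, whose notes name DESeq (median -0.24; Ngp and S100a9 both at -0.34), and none had an unadjusted p under 0.05. Among 11 bone genes, Col1a1 and Bglap were positive, at 1.12 ± 0.32 and 1.08 ± 0.34, and Ctsk negative, at -0.72 ± 0.20 (log2 ± SE), in the authors' deposited table (median -0.09). Of 6 muscle genes (median -1.42), Myh1 and Actn3 were called at -1.62 ± 0.52 and -1.54 ± 0.55 (log2 ± SE) in the authors' deposited table, where 6.11% of tested genes were called with a negative sign. The CV between libraries was 50.7% for Myh1 and 53.9% for Actn3.

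**Figure D4:**
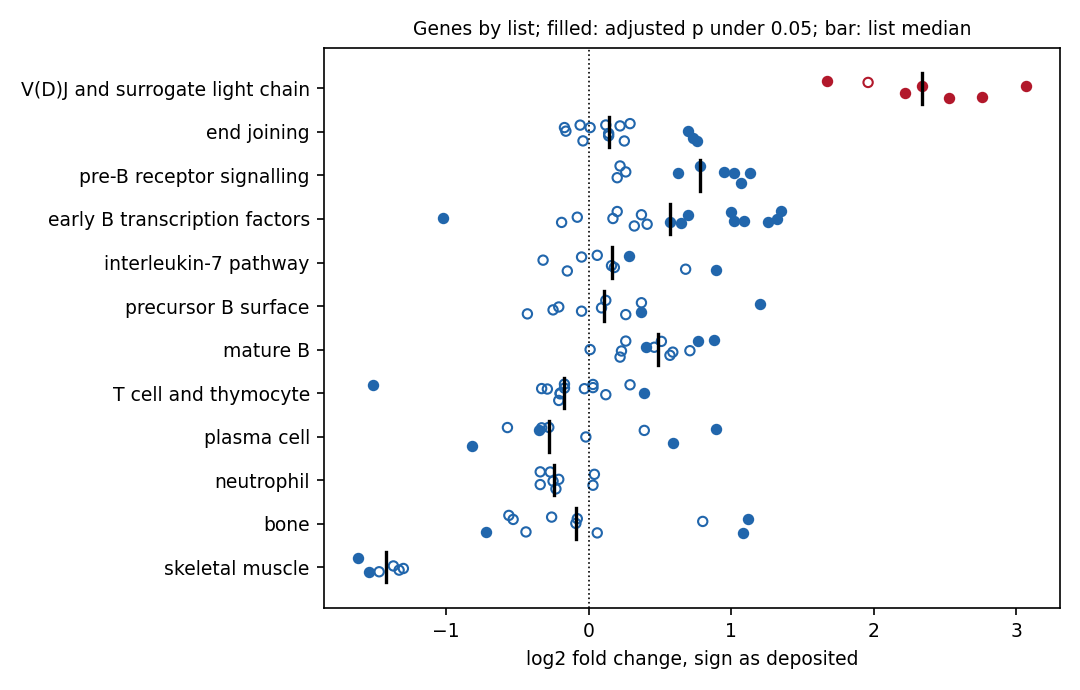
Deposited log2 fold change of each tested gene by list, with filled points for an adjusted p under 0.05, open points otherwise, and a bar at the median. The median of the 7 genes (2.34, red, chosen on these values) lies beyond every list, the nearest being receptor signalling at 0.78.

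Genes beside these loci were examined, since position was not used to choose the 7 genes. Igll1 and Vpreb1 are neighbours, as are Rag2 and Rag1, and the other 3 genes lie alone. The 2 annotated genes on each side that have a fold change gave 20 neighbours, of which 16 were tested. Their median log2 fold change was 0.02, and 4 of the 16 were called, 2 in each direction, beside 12.2% of all tested genes. At the Igll1 and Vpreb1 locus, Top3b and Ppm1f had 0.02 ± 0.10 and -0.01 ± 0.08 (log2 ± SE) in the authors' deposited table. At the recombinase locus, Api5 had 0.07 ± 0.08, Traf6 0.18 ± 0.10 and Prr5l 0.48 ± 0.21 (log2 ± SE) in the authors' deposited table, and none of these was called. Around Vpreb2, Slc25a1 and Dgcr6 had 0.01 ± 0.14 and -0.09 ± 0.12 (log2 ± SE) in the authors' deposited table, and Prodh was called at -0.26 ± 0.09.

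At the Dntt locus, neighbours on the lower-numbered side were called with a positive sign. There, C330026H20Rik, a gene of unnamed function, stood at 1.80 ± 0.36 and Blnk at 1.13 ± 0.15 (log2 ± SE) in the authors' deposited table. On the other side, Tm9sf3 was called at -0.21 ± 0.06 (log2 ± SE) in the authors' deposited table, and Tll2, at a mean of 3.04 counts, was not tested. Beside Vpreb3, Gm867 had 0.45 ± 0.17, Gm5134 0.37 ± 0.48 and Chchd10 0.00 ± 0.26 (log2 ± SE) in the authors' deposited table, and none was called.

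**Figure D5:**
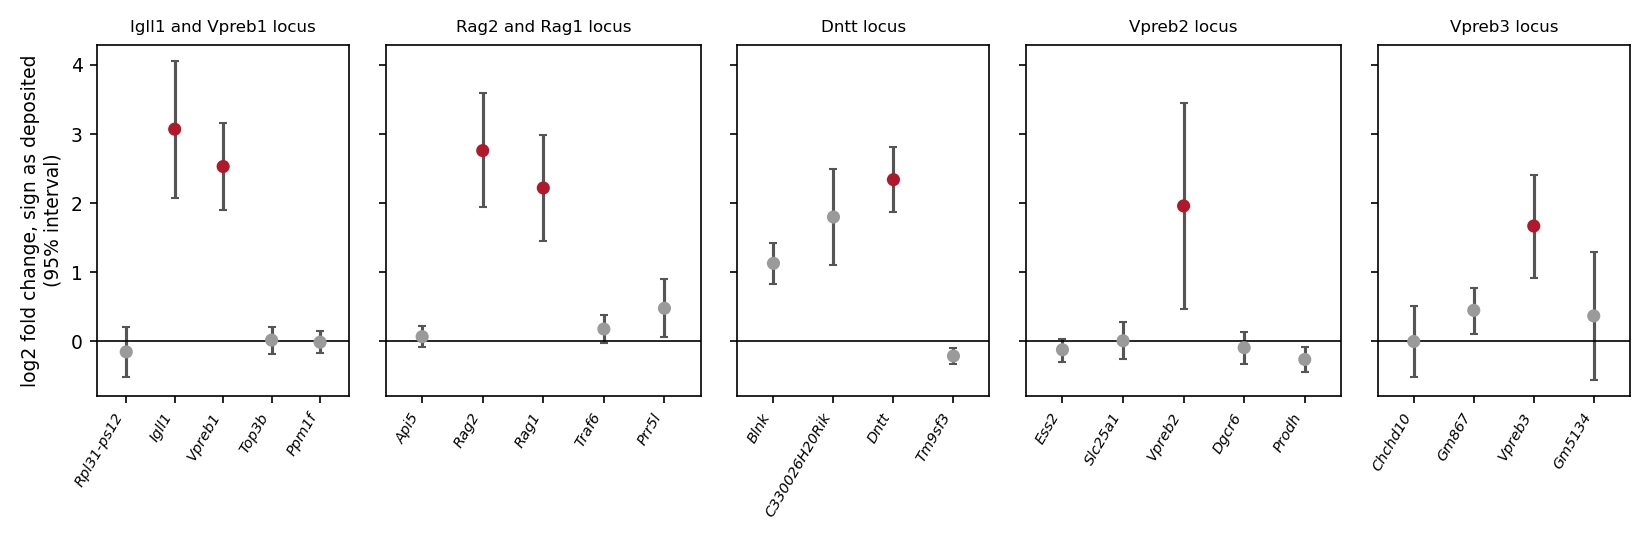
Deposited log2 fold change with its 95% interval for the 7 genes (red) and their tested neighbours (grey), in chromosome order within each locus. Apart from C330026H20Rik at 1.80 and Blnk at 1.13, the tested neighbours lie between -0.26 and 0.48.

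Besides the 7 genes, the 5 called genes whose log2 fold change lay nearest the median of the 7 (2.34, over 1 comparison), leaving out predicted and Rik genes, pseudogenes and antigen receptor segments, were Tifa, Drc7, Pcdhgb8, Lgr5 and Myo1a. Tifa had 2.31 ± 0.44 at a mean of 1434 counts and carried 2 m6A peaks, and Drc7 had 2.24 ± 0.32 (log2 ± SE) in the authors' deposited table. Pcdhgb8, Lgr5 and Myo1a had 2.22 ± 0.66, 2.49 ± 0.43 and 2.16 ± 0.40 (log2 ± SE), at means of 30.2 to 108.5 counts, in the authors' deposited table.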

How the data were processed

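Input and IP libraries of bone from ovariectomized and sham-operated mice were compared by the authors. HISAT2, StringTie, DESeq and rn6, a rat build, appear in the submitters' processing notes without versions or roles, although the samples are mouse. For each gene the authors deposited, per the file headers, a normalized signal (the mean count over libraries after scaling by size factors), the log2 fold change and its SE, a Wald score, and p-values. The peak table, per the file headers, holds p-values and log10 p-values against input, a fold enrichment as a ratio, and a log2 difference with log10 p and FDR values as a score. Of 13026 peaks with an annotated symbol, 13000 (99.8%) lay inside that gene on GRCm38.p6.

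No test was run here. Calls are deposited adjusted p (RNA) or p (peaks) under 0.05. Arm means, counting SE and CV were computed for 4 libraries an arm, assuming the fold change is the ratio of arm means. The arithmetic was checked on simulated counts whose CV was taken as known. That check does not cover the smoothing of the authors' model, and the simulated CVs were all below that of Vpreb2. Intervals are 1.96 SE. Python 3.11.15, numpy 2.4.6, pandas 2.3.3 and matplotlib 3.10.9 were used.

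The genes, the 11 lists and all rules were chosen with earlier results of these data known. Text names the 7 genes, their neighbours, up to 4 called genes per list by smallest p (2 where none was called) and the 5 genes nearest in fold change. Some genes the rule selects are not reported here. Neither Ighm nor any antigen receptor segment was in the tables, and these are not analysed here. Alternatives were another threshold, adjustment, level filter, promoter window and strand.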

Additional observations from a re-analysis of the deposited data

How the results depend on the processing

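The count of 6 of 7 genes called was also 6 with an adjusted p under 0.01 and with p-values adjusted over all 19015 genes that have one. Neither alternative could remove a call, since the largest deposited adjusted p of the 6 was 0.00057 (Vpreb3). Requiring a log2 fold change of 1 or more cannot change the count, since the lowest of the 7 is 1.67. Nothing is read from this count, since these values chose the genes. With 0 of 8 peaks called, the FDR rule and the enrichment filter can give only 0. Calls over all lists numbered 37, and 26, 37 and 36 with an adjusted p under 0.01, a mean of at least 50 counts and the wider adjustment. With an adjusted p under 0.01, the calls became 1 in place of 2 for the interleukin-7 pathway and 0 in place of 2 for both T cell and muscle genes. The wider adjustment left 1 muscle call, and the coding strand alone left 1 of 2 Ikaros matches. These 5 changes follow from the stricter rules themselves. The neighbours' 4 calls became 3 under either alternative, both chosen after seeing the data.

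No paired analysis was possible because the tables hold no value for a single library. For the same reason no library was left out. Letters of peak sequences were not searched, since no genome was used here. Vpreb2 had the lowest mean of the 7 genes, 47.4 counts, and its SE was 4.14 times that from counting alone. Counting alone would give it an SE of 0.184, beside the deposited SE of 0.76, and other effects of depth on its precision were not tested.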

Other observations

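Some peaks of other B lineage genes had a small deposited p for the difference between the arms. Of the 8 peaks in receptor signalling genes, 3 had a difference p under 0.05, and of the 34 peaks in early B transcription factors, 4 did, beside 4.92% of all peaks. None of these had an FDR under 0.05 in the authors' deposited table, in which only 3 of 13083 peaks did. They were named after their values were seen. The peak in Lyn, a kinase of receptor signalling (chromosome 4, 3790279 to 3790477), had a log2 difference of -0.63 (p = 2.5e-05) in the authors' deposited table. Ikzf3, the factor Aiolos, also carried 2 peaks, and its called peak (chromosome 11, 98490483 to 98516944) had 0.29 (p = 0.00051) in the authors' deposited table. In Cd79b, a chain of the B cell receptor, the peak (chromosome 11, 106311538 to 106311685) had -0.52 (p = 0.0045) in the authors' deposited table. Its RNA was called with a log2 fold change of 0.95 ± 0.24 (SE) in the authors' deposited table. Bcl11a, a factor of early lymphoid cells, carried 7 peaks. Its called peaks had -0.30 (p = 0.035) and 0.45 (p = 0.015) in the authors' deposited table. The remaining called peaks were in Ikzf1, with 0.29 (p = 0.011), and Syk, with -0.05 (p = 0.03), in the authors' deposited table. Both genes carried 3 peaks. No peak was called among the 24 of end joining genes, the 5 of the interleukin-7 pathway, the 11 of precursor surface genes, the 10 of mature B cell genes, the 4 of plasma cell genes or the 4 of T cell genes in the authors' deposited table. Lists outside the lymphoid lineage also held called peaks, 2 of 10 for bone, 1 of 2 for neutrophils and 1 of 10 for muscle, in the authors' deposited table.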
